A study of Caenorhabditis elegans with 2 samples.

Results

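The regions described here lay between protein-coding genes, in the first stretch of sequence past a gene end, and were recovered with an anti-GFP antibody from whole Caenorhabditis elegans embryos that carry a tagged CHE-1. A region was taken when its summit, the position of highest signal given by the authors' caller, lay outside every protein-coding gene and at most 1000 bp downstream of a protein-coding gene end. Summits within 1000 bp upstream of a protein-coding transcript start were left out, as were summits within 100 bp of a tRNA, snoRNA or snRNA gene. The rule used no score, and it took 1568 of the 29978 nuclear regions in the list of both replicates together, which held 30000 regions in all. These 1568 regions are called gene-end regions below.

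The study comprised 1 group of 2 biological replicates and no second condition. Both were mixed-sex late embryos of strain OP677 (unc-119(tm4063) III; wgIs677), collected 6 hours after eggs had been bleached to synchronize them. Both carry an integrated transgene that adds GFP and FLAG to the C terminus of CHE-1. The promoter that drives it is not given in the sources used here. No untagged strain and no control library was analysed here. Recovery through CHE-1 and recovery without it can therefore not be told apart.

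CHE-1, a zinc finger protein that binds DNA, gives the ASE taste neurons, a single pair of cells in the head, their identity. Worm genes are closely packed, and past a gene end lie the sequences in which RNA polymerase II stops after the transcript has been cleaved and given its poly(A) tail. The same stretches can hold genes of short non-coding RNAs, pseudogenes and repeats, and where genes end towards each other they serve the ends of both. Whole embryos were used, so binding in few cells and weak binding in many cells cannot be told apart.

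The summit sequences of the highest gene-end regions are shown first, because the sets they fall into recur below. The sets are regions at non-coding genes, regions of repeated units, and regions that hold CGCACA, a 6-base sequence known from earlier results of these data. CGCACA lay within 50 bp of 3.6% of all nuclear summits, against 2.05% of positions 500 bp to either side. Each sequence printed is the summit with 50 bp to either side, on the + strand of WBcel235, read from the RefSeq genome sequence. Capitals mark CGCACA or its complement TGTGCG, or the first unit of a tandem repeat, and a sequence without capitals holds neither. The first 6 are the 6 highest gene-end regions, and the last 3 are the next-highest with CGCACA, after alh-3, which belongs to both sets.
alh-3, chrIV:11026156-11026256: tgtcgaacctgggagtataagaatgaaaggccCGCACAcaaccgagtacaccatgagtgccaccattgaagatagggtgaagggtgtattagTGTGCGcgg
D2096.7, chrIV:8375549-8375649: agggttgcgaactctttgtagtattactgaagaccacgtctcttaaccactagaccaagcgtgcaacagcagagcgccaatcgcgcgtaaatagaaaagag
WBGene00020828, chrX:1837847-1837947: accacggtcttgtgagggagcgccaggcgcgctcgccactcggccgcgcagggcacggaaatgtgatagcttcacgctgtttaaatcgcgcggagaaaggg
ZC155.4, chrIII:5211387-5211487: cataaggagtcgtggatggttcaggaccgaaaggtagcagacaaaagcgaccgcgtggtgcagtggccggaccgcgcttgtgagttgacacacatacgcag
H35N09.2, chrX:8603185-8603285: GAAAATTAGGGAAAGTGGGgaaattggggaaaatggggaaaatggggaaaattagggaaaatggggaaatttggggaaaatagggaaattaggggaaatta
T28H10.2, chrV:12510126-12510226: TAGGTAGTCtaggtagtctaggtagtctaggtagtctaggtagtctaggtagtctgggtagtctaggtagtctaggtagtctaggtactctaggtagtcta
idpp-9, chrX:3914465-3914565: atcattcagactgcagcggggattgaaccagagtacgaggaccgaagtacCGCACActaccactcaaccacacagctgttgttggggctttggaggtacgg
ZK353.9, chrIII:8412125-8412225: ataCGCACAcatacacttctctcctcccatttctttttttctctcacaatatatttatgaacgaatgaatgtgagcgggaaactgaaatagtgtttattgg
F28F9.3, chrIV:3836580-3836680: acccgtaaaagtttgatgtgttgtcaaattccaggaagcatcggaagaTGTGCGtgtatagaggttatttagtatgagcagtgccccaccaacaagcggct

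Gene-end regions were about as dense, and about as often strong, as nuclear regions away from small RNA genes. The score of a region is the authors' signal value, whose scale is not stated. The IDR set (irreproducible discovery rate, a procedure that keeps regions ranked alike in replicates) consisted of the top of the list of both replicates, and "high" below means a rank within the size of that set. Of the 1568 gene-end regions, 27 were in the IDR set, a share of 1.72% (exact 95% interval 1.14 to 2.5%), against 770 of all 29978 nuclear regions, a background of 2.57%. That background includes the 564 regions at tRNA, snoRNA and snRNA genes, which the rule leaves out and of which 291 were in the IDR set. Over the 29414 nuclear regions away from such genes, called the remaining nuclear regions below, 479 were in the IDR set (1.63%), a share inside the gene-end interval. These 29414 include the gene-end regions themselves. They are the background used below, chosen after values had been seen. No test between places was made, since the places and the members were chosen with earlier results of these data known, and the intervals cover counting error over regions only. Read counts are not in the lists, and the depth of each library is unknown.

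Set beside the other places, gene ends stood near other intergenic sequence and far from the promoters. The share in the IDR set was 1.72% past gene ends, against 5.34% of 4665 regions within 1000 bp upstream of a protein-coding start, 1.5% of 4870 other intergenic regions, 0.93% of 10328 in introns and 0.426% of 7983 in exons. At tRNA, snoRNA and snRNA genes it was 51.6% of 564. Per megabase, 4.68 IDR regions lay past gene ends, against 20.3 upstream of starts, 3.79 in other intergenic sequence and 4.79 over the genome away from small RNA genes (7.68 with them). All gene-end regions together numbered 272 per Mb, against 294 per Mb for the remaining nuclear regions, and they took 5.23% of the regions on 5.76% of the genome.

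**Figure D1:**
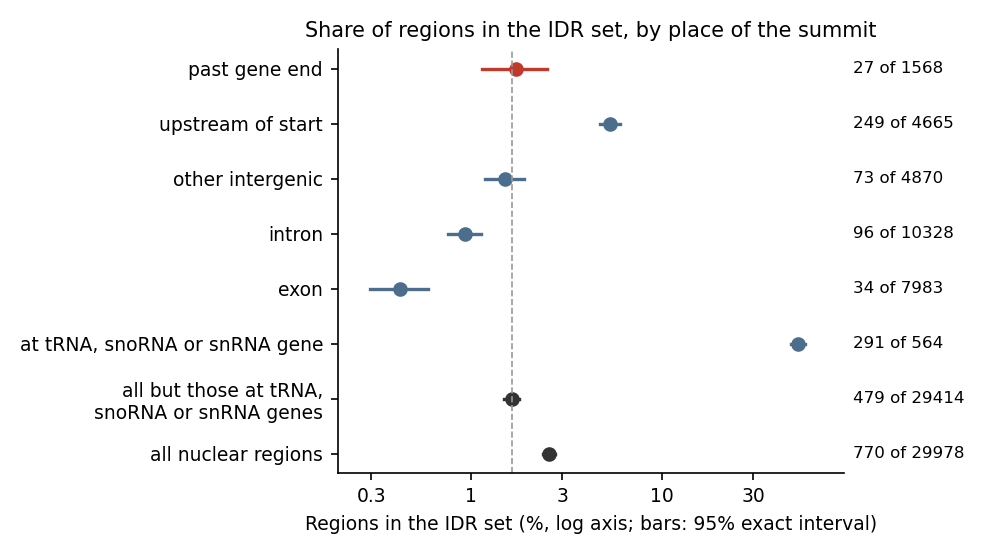
Percent of regions in the IDR set (log axis) by the place of the summit, with exact 95% intervals as bars, the share over nuclear regions away from tRNA, snoRNA and snRNA genes (1.63%) as a dashed line, and counts at the right. The interval past gene ends, 1.14 to 2.5%, holds the dashed line, overlaps that of other intergenic regions and lies below that of regions upstream of starts.

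Gene-end regions took a similar share of every part of the ranking once regions at small RNA genes were set aside. They made up 2 of the 23 remaining regions among the 100 highest nuclear ones (8.7%, exact 95% interval 1.07 to 28%), 5.48% of the 456 remaining among the next 670, 4.54% of the 727 remaining in the 770 after those, and between 4.96 and 5.62% in each lower bin. With regions at small RNA genes counted, the first 3 shares were 2, 3.73 and 4.29%. The median score was 46.3 over gene-end regions, against 47.4 over the remaining nuclear regions. Within the IDR set, the median was 156 for the 27 gene-end regions, against 155 for the 479. They made up 5.64% of those 479 (exact 95% interval 3.75 to 8.1%) and 3.51% of the whole nuclear IDR set (2.32 to 5.06%).

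The values next to the limits of the rule were as follows. Among summits 901 to 1000 bp past an end, 1 of 102 regions was in the IDR set, against 2 of 86 just outside, at 1001 to 1100 bp. The distance to small RNA genes mattered more for the count. Of the 73 regions that met every other condition but lay within 100 bp of a tRNA, snoRNA or snRNA gene, 43 were in the IDR set (58.9%). Just inside, beyond 100 and up to 200 bp from such a gene, 1 of 18 was, and beyond 500 bp 26 of 1537 were (1.69%).

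The highest gene-end region was also the highest of all regions away from small RNA genes. It lay 336 bp past the end of alh-3, which encodes 10-formyltetrahydrofolate dehydrogenase, an enzyme of folate one-carbon metabolism. Its score was 866, the second-highest gene-end score being 420, and it ranked 26 in the list of both replicates, 27 in that of replicate 1 and 21 in that of replicate 2. The summit lay inside F36H1.17, an unclassified non-coding RNA gene, and within 100 bp of cel-mir-51, a microRNA gene of a family needed for worm embryonic development. Its sequence, shown above, holds CGCACA on one strand and again on the other, near the far end of the window.

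Non-coding genes other than the small RNA classes left out lay at 6 of the 27 IDR gene-end regions, within 100 bp of the summit, and at 190 of all 1568 (12.1%). This count over all such classes was not made for the remaining nuclear regions. WBGene00020828 (score 329, ranks 153 in replicate 1 and 177 in replicate 2) held its summit in a pseudogene 529 bp past its end. The region past ZC155.4, which encodes a protein with a GP-PDE domain (glycerophosphodiester phosphodiesterase), had ranks of 285 in replicate 1 and 233 in replicate 2, and its summit lay inside the non-coding RNA gene srpr-2.1. Both were high in both replicates. A region inside srpr-1.1, past the ends of pals-26 and B0284.3, ranked 797 in the list of both replicates, just outside the IDR set, with an IDR summit close by. The region past idpp-9, which encodes an intrinsically disordered protein of the pharynx, lay inside T22B2.9 and T22B2.12 and ranked 295 in replicate 1 and 312 in replicate 2. Those past srg-36 and Y55B1BR.8 lay inside or beside unclassified non-coding RNAs too.

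Over all gene-end regions, annotation of this kind was uncommon. Genes annotated as ncRNA lay within 100 bp of 79 summits (5.04%), against 5.73% of the remaining nuclear summits. Of the 79, 5 were in the IDR set (6.33%), against 22 of the 1489 gene-end regions away from them (1.48%). Over the remaining nuclear regions the same shares were 4.87% of 1685 at ncRNA genes and 1.43% away from them, so the share was the larger one at ncRNA genes in both. Pseudogenes lay at 91 gene-end summits, of which 1 was in the IDR set. MicroRNA genes lay at 3, piRNA genes (which encode the small RNAs that silence transposons in the germline) at 11 and long intergenic non-coding RNA genes at 9, with 1, 0 and 0 in the IDR set. For these classes other than ncRNA, no share over the remaining nuclear regions was computed. The annotation classes were chosen after values had been seen.

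Tandem repeats formed a second group, also chosen after the sequences had been seen. A window was called a tandem repeat when at least 80% of its bases matched the base 1 period away, for any period of 2 to 50 bp. Of the 27 IDR gene-end windows 4 met this (14.8%, exact 95% interval 4.19 to 33.7%), against 10 of the 479 remaining nuclear IDR windows (2.09%, 1.01 to 3.81%), so gene ends held 4 of the 10. Other intergenic sequence held 3 of the 10, or 4.11% of its 73 IDR windows (0.856 to 11.5%). That interval overlaps the one for gene ends. Introns, exons and sequence upstream of starts held 1 each. Among all gene-end windows 33 were tandem repeats (2.1%, exact 95% interval 1.45 to 2.94%), against 343 of the remaining nuclear windows (1.17%). Introns, with 1.78%, and other intergenic sequence, with 1.58%, had shares within the gene-end interval, and exons had 0.1%. Of the 33, 4 were in the IDR set (12.1%), against 10 of the 343 (2.92%).

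The 4 repeats differed in their units and in how alike the replicates ranked them. The region 144 bp past H35N09.2, which encodes a protein with an RRM (RNA-binding) domain, repeats a unit of 19 bp and ranked 252 in replicate 1 and 261 in replicate 2. The region 469 bp past T28H10.2, which encodes a protein with a ShKT domain, repeats 9 bp with 96.4% of bases matched and ranked 266 and 260 in replicates 1 and 2. The other two, past Y71G12A.4 (a unit of 35 bp) and appg-1 (26 bp), were lower. Y71G12A.4 ranked 716 in replicate 1 and 758 in replicate 2, and appg-1 ranked 670 and 1646. The first 3 were thus high in both replicates and appg-1 in replicate 1 alone.

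Letters masked as repeats in the RefSeq sequence made up more than 50% of the window in 34.4% of gene-end regions, against 26.3% of the remaining nuclear regions. The share was 39.5% in introns, 25.5% in other intergenic sequence and 7.77% in exons. In the IDR set this held of 10 of the 27 gene-end regions (37%, exact 95% interval 19.4 to 57.6%), against 15.2% of the 479 remaining nuclear ones (12.1 to 18.8%). It held of 15 of 73 in other intergenic sequence (20.5%, 12 to 31.6%), 15.6% of 96 in introns (9.02 to 24.5%) and 11.6% of 249 upstream of starts (7.94 to 16.3%). Outside the IDR set the shares were 34.4% past gene ends, 25.6% in other intergenic sequence, 39.7% in introns and 27.8% upstream of starts. Past gene ends and in other intergenic sequence, the intervals inside the IDR set thus included the share outside it. In introns and upstream of starts they lay below it. The windows past Y55B1BR.8 and srg-36, which are not tandem repeats by the rule, matched best at a period of 2 bp, with 61.6 and 62.6% of bases.

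All 27 IDR gene-end regions overlapped a region in each replicate list, as did all 479 remaining nuclear IDR regions. The IDR procedure keeps regions ranked alike in replicates, so such overlap is largely built into the set. Most but not all of the 27 ranked high in both replicates. Over all gene-end regions, 902 overlapped a region in both replicate lists (57.5%), against 58.3% of the remaining nuclear regions, and 59 overlapped none. Of the 27 in the IDR set, 15 were high in both replicates (55.6%, exact 95% interval 35.3 to 74.5%), against 281 of the 479 remaining nuclear IDR regions (58.7%). Of the remaining 12, 6 were high in replicate 1 only and 6 in replicate 2 only. Spearman's rho between the replicate scores was 0.39 over the 902 gene-end regions found in both, against 0.35 over the remaining nuclear regions. In the IDR sets it was 0.63 (27 regions) against 0.60. These are descriptions over regions of the same 2 libraries, with no p.

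**Figure D2:**
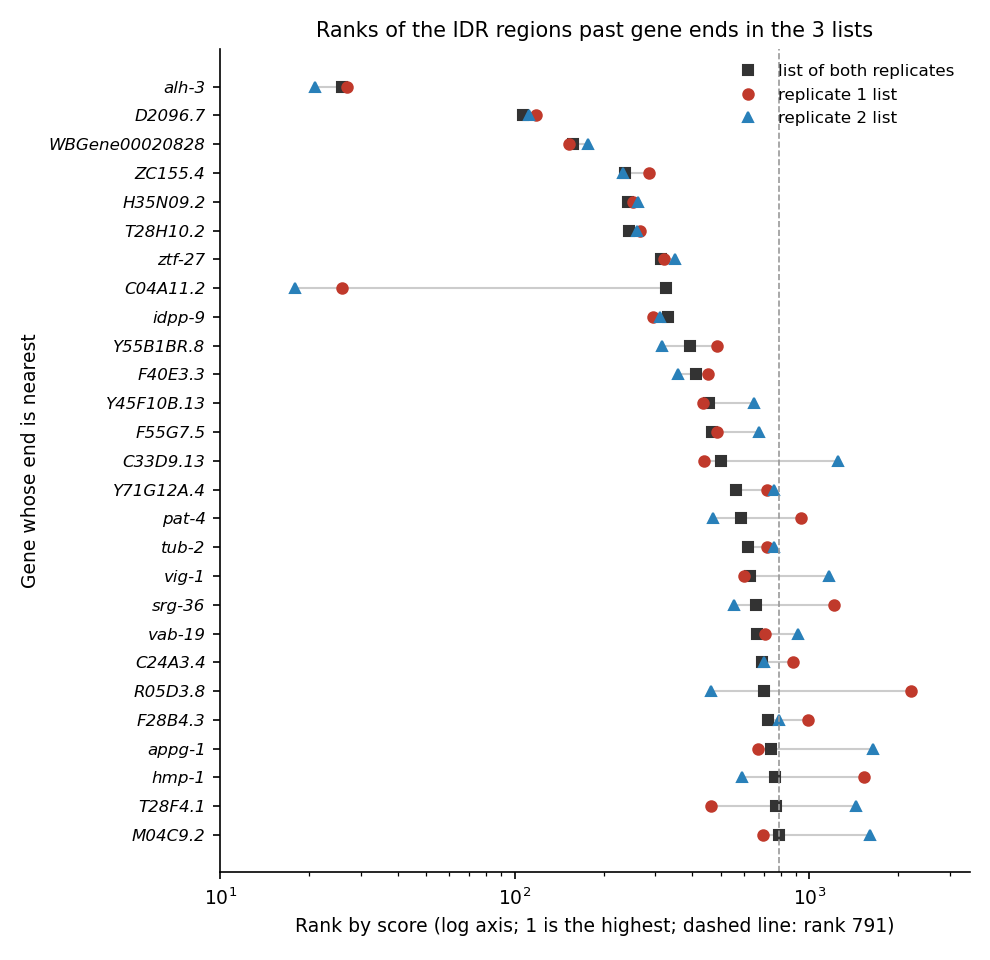
Rank by score (log axis, 1 the highest) of each of the 27 IDR gene-end regions in the list of both replicates (squares), of replicate 1 (circles) and of replicate 2 (triangles). The dashed line is the last rank within the size of the IDR set. The upper 13 regions lie left of it in all 3 lists, and most of the lower ones cross it in 1 replicate.

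Some gene-end regions overlapped a stronger neighbour, and their replicate ranks are then the neighbour's. The region past C04A11.2, with its summit just beyond the limit of 100 bp from a tRNA gene, ranked 325 in the list of both replicates. The highest replicate regions overlapping it ranked 26 in replicate 1 and 18 in replicate 2, with summits at -202 and -203 bp from its own on the + strand, and another IDR summit lay 209 bp away. The regions past tub-2, which encodes a protein with a tubby domain, and past Y71G12A.4 lay in the same gap between both gene ends, with summits 233 bp apart, and shared their replicate regions. In all, 576 gene-end regions (36.7%) overlapped another region of the list. Another IDR summit lay within 500 bp of 27 gene-end regions, of which 3 were themselves in the IDR set (11.1%), against 21 of the 1438 with none within 5000 bp (1.46%). The 3 are those past C04A11.2, tub-2 and Y71G12A.4, and the last pair count each other as neighbours. These shares were not computed over the remaining nuclear regions.

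The remaining high regions lay past genes of varied kinds. D2096.7, which encodes a protein with an ELYS domain, and aagr-1, an acid alpha-glucosidase relative, end towards each other 350 bp apart. The region between them scored 420 in the list of both replicates, 230 in replicate 1 and 188 in replicate 2. It was the only one besides alh-3 among the 100 highest nuclear regions. The region 113 bp past ztf-27, which encodes a zinc finger protein, ranked 322 in replicate 1 and 349 in replicate 2. F40E3.3, Y45F10B.13, F55G7.5 and C33D9.13 followed with scores of 156 to 179. The first 3 of these were high in both replicates, whereas C33D9.13 ranked 437 in replicate 1 and 1254 in replicate 2.

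Among the lower IDR regions, several were high in 1 replicate only. A region lay 35 bp past pat-4, the integrin-linked kinase of muscle attachments, and 175 bp past mrpl-40, a protein of the mitochondrial ribosome. It ranked 937 in replicate 1 and 472 in replicate 2. The region 222 bp past hmp-1, the alpha-catenin of epidermal junctions, ranked 1526 in replicate 1 and 589 in replicate 2. The region past vig-1, which encodes an mRNA-binding protein of the RNA-induced silencing complex, ranked 600 and 1166 in replicates 1 and 2. The one past vab-19, an ankyrin repeat protein of epidermal attachments, ranked 707 and 911. None of these 4 was thus high in both replicates. The region past srg-36, a chemoreceptor gene whose end faces that of the cytochrome P450 gene cyp-13B2, likewise ranked 1215 in replicate 1 and 556 in replicate 2.

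The density of regions varied with distance past the end, from 218 to 317 per Mb, without a steady rise or fall. The median distance of the summit was 384 bp over gene-end regions (quartiles 192 and 635 bp) and 336 bp in the IDR set (164 and 510 bp), against 391 bp over all the bases that the rule takes. Per megabase of those bases there were 233 regions in the first 100 bp past the end, 311 and 317 in the bins that end at 300 and 400 bp, and 252 in the last 100 bp. The IDR regions were spread over all 10 bins, with 20 of the 27 in the first 500 bp.

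**Figure D3:**
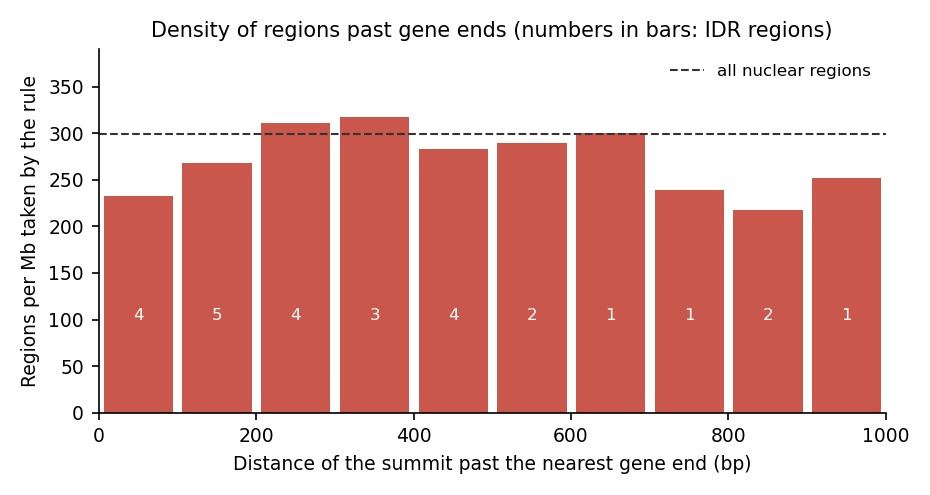
Gene-end regions per megabase of sequence taken by the rule, in bins of 100 bp past the nearest gene end, with the density of all nuclear regions (299 per Mb) as a dashed line and the number of IDR regions in each bar. The density is lowest in the bin that ends at 900 bp, at 218 per Mb, and highest in the one that ends at 400 bp, at 317 per Mb.

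Gaps between facing gene ends held a slightly smaller share of the regions than of the bases taken by the rule. Of the 1568 gene-end regions 559 lay between genes that end towards each other (35.7%, exact 95% interval 33.3 to 38.1%). Such gaps hold 38.2% of the bases taken by the rule, just above that interval. The density was 254 regions per Mb between facing ends, against 283 per Mb between an end and a start. Another 1008 lay between an end and the start of the next gene, and for 1 neither held. In the IDR set were 12 of the 559 between facing ends (2.15%, exact 95% interval 1.11 to 3.72%) and 15 of the 1008 between an end and a start (1.49%, 0.835 to 2.44%). The intervals overlapped. Over gene-end regions, the gap around the summit had a median length of 1628 bp between facing ends, against 3371 bp between an end and a start. These medians run over regions, so a gap with several regions counts several times and one with none is left out. The summit lay within 1000 bp of gene ends on both strands in 245 regions, of which 7 were in the IDR set.

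Gene-end regions were densest on chromosomes III and I, as the remaining nuclear regions were. There were 503 per Mb of sequence taken on chromosome III, 394 on I, 295 on II, 225 on IV, 199 on X and 187 on V. The remaining nuclear regions numbered 384 per Mb on III, 359 on I, 325 on II, 241 on IV, 262 on X and 233 on V. The X chromosome held 8 of the 27 IDR gene-end regions, or 3.67% of its 218, against 2.07% of the remaining regions on X. Chromosome V held 2, or 0.746% of its 268, against 1.17% of its remaining regions.

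Summits past gene ends were richer in G and C than their surroundings. The summit windows, with 50 bp to either side, held 39.2 ± 9.28% G and C (SD over 1568 windows), against 34.7% in windows 500 bp to either side. In the IDR set it was 46.5 ± 9.51% (27 windows) against 33.6% at the sides. Over the remaining nuclear regions the values were 40.6% at summits and 35.5% at the sides, and in the IDR set 48.1 and 36.6%. The 4 lines in the plot of base composition all peak at the summit. C04A11.2, with 25.7%, and appg-1, with 30.7%, were the lowest of the 27, and WBGene00020828, with 63.4%, the highest.

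**Figure D4:**
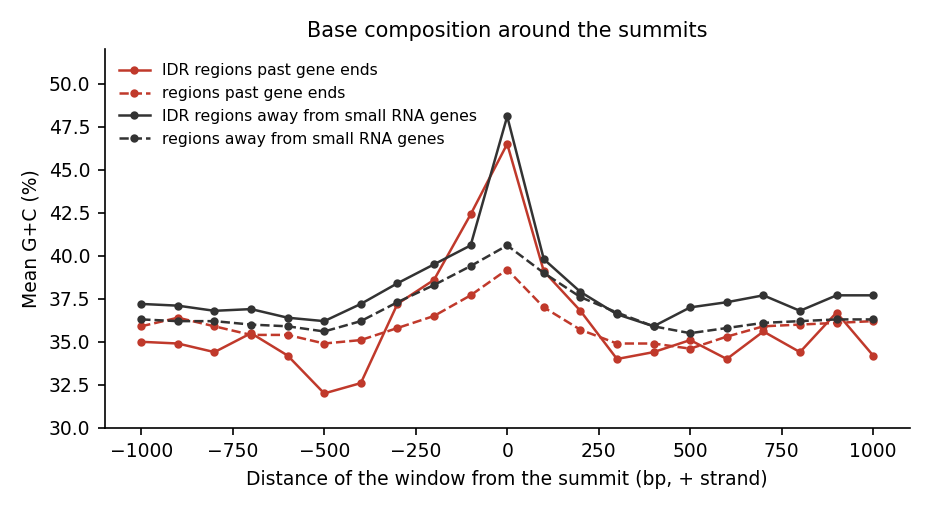
Mean percent G and C of windows, each with 50 bp to either side of its centre, at distances up to 1000 bp from the summit, for gene-end regions (red) and nuclear regions away from tRNA, snoRNA and snRNA genes (black), in the IDR set (solid) and in all (dashed). At the summit it reaches 46.5% in the 27 IDR gene-end regions, against 48.1% in the 479 remaining nuclear IDR regions, and 39.2% in all gene-end regions, against 40.6% in the remaining nuclear regions.

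CGCACA, sought on both strands, was present in few gene-end windows. It lay in 68 of 1568 (4.34%, exact 95% interval 3.38 to 5.47%), against 3.58% of the remaining nuclear windows, and in 2.01% of the windows 500 bp away from gene-end summits. Of the 27 IDR gene-end windows 2 held it, those past alh-3 and idpp-9 (7.41%, exact 95% interval 0.91 to 24.3%), against 18% of the 479 remaining nuclear IDR windows. By place, the share of IDR windows was 25.7% upstream of starts, 12.5% of 96 in introns, 9.59% of 73 in other intergenic sequence and 2.94% of 34 in exons. The gene-end interval includes all of these but the share upstream of starts. Regions with CGCACA were in the IDR set in 2 of 68 cases past gene ends (2.94%, exact 95% interval 0.358 to 10.2%), against 86 of 1053 remaining nuclear regions (8.17%, 6.58 to 9.99%), so the intervals overlapped. Without it, the shares were 1.67% past gene ends and 1.39% over the remaining nuclear regions. ZK353.9 and F28F9.3, the next-highest with it, lay outside the IDR set.

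The sites GAAACC and GAAGCC, both forms of the core of the site through which CHE-1 is known to act in ASE, had similar shares at gene-end summits and beside them. On either strand 1 or the other lay in 121 of 1568 windows (7.72%, exact 95% interval 6.44 to 9.15%), against 7.91% of the windows 500 bp away and 8.56% of the remaining nuclear summit windows. Of the 27 IDR gene-end windows only that past C24A3.4, an alpha-methylacyl-CoA racemase gene, held it (3.7%, exact 95% interval 0.0937 to 19%). Over the 479 remaining nuclear IDR windows the share was 5.01%, inside that interval. The region past C24A3.4 ranked 880 in replicate 1 and 702 in replicate 2.

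A pair of other sequences was counted after values had been seen. AATAAA, the signal for cleavage and polyadenylation, lay on either strand in 17.8% of gene-end summit windows and 25.2% of those 500 bp away, against 16.2 and 21.2% over the remaining nuclear regions. In the IDR set it lay in 1 of the 27 gene-end windows (3.7%, exact interval 0.0937 to 19%). Over the 479 remaining nuclear IDR windows the share was 15.4%, inside that interval. AATAAA is low in G and C, and its frequency was not adjusted for base composition. GTTCNANNC, which matches the B box of promoters used by RNA polymerase III, lay in 3.38% of gene-end windows and in 1 of the 27 in the IDR set, that past idpp-9. Over the remaining nuclear windows it lay in 3.28%, and in 2.92% of the 479 in the IDR set. At tRNA, snoRNA and snRNA genes it lay in 36.3%. These matches are letters within a window, not bound sites.

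Genes with a region past their end came from many groups. Of 19973 nuclear protein-coding genes 1562 had a gene-end region within 1000 bp past their end, a background of 7.82%, and 32 had one in the IDR set (0.16%). Only 10183 genes have any sequence there that the rule takes, of which the 1562 are 15.3%. Groups are read below against 7.82% over all their genes and against 15.3% over those with such room, and no test was made over them. The intervals make no allowance for the number of groups read. Some pairs of genes share a region between their ends.

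Which groups stood above the background depended on whether room past the end was required, whereas chemoreceptor genes stood below it either way. Of 35 muscle genes 7 had one (20%, exact 95% interval 8.44 to 36.9%), or 31.8% of the 22 with room (13.9 to 54.9%, which includes 15.3%). The highest was the region past pat-4, and the next lay past unc-52, which encodes the perlecan of the basement membrane, with a score of 88.2 and ranks of 11029 in replicate 1 and 1060 in replicate 2. Of 63 homeobox genes named ceh 11 had one (17.5%, 9.05 to 29.1%), or 28.2% of the 39 with room (15 to 44.9%, which includes 15.3%), led by ceh-13, the labial-like Hox gene, with a pair of regions that ranked 5307 and 9943 and shared their replicate regions. No region of the homeobox group was in the IDR set.

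Chemoreceptor genes, the largest group, had a gene-end region in 46 of 1311 cases (3.51%, exact 95% interval 2.58 to 4.65%), and in 5.91% of the 778 with room (4.36 to 7.81%). Only that past srg-36 was in the IDR set. The next, past srd-64, ranked 762 in replicate 1 and 24526 in replicate 2. Cytosolic ribosomal protein genes had 2 of 78 (rps-6 and rps-8, ranks 11533 and 24755), and neuropeptide and insulin-like genes 6 of 140, or 6.19% of the 97 with room (2.3 to 13%, below 15.3%). The highest of these regions, past ins-37, ranked 930, with replicate regions ranked 138 and 143 whose summits lay at -200 and -141 bp from its own. None of 25 intestine genes had one, and an exact 95% interval allows up to 13.7%.

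**Figure D5:**
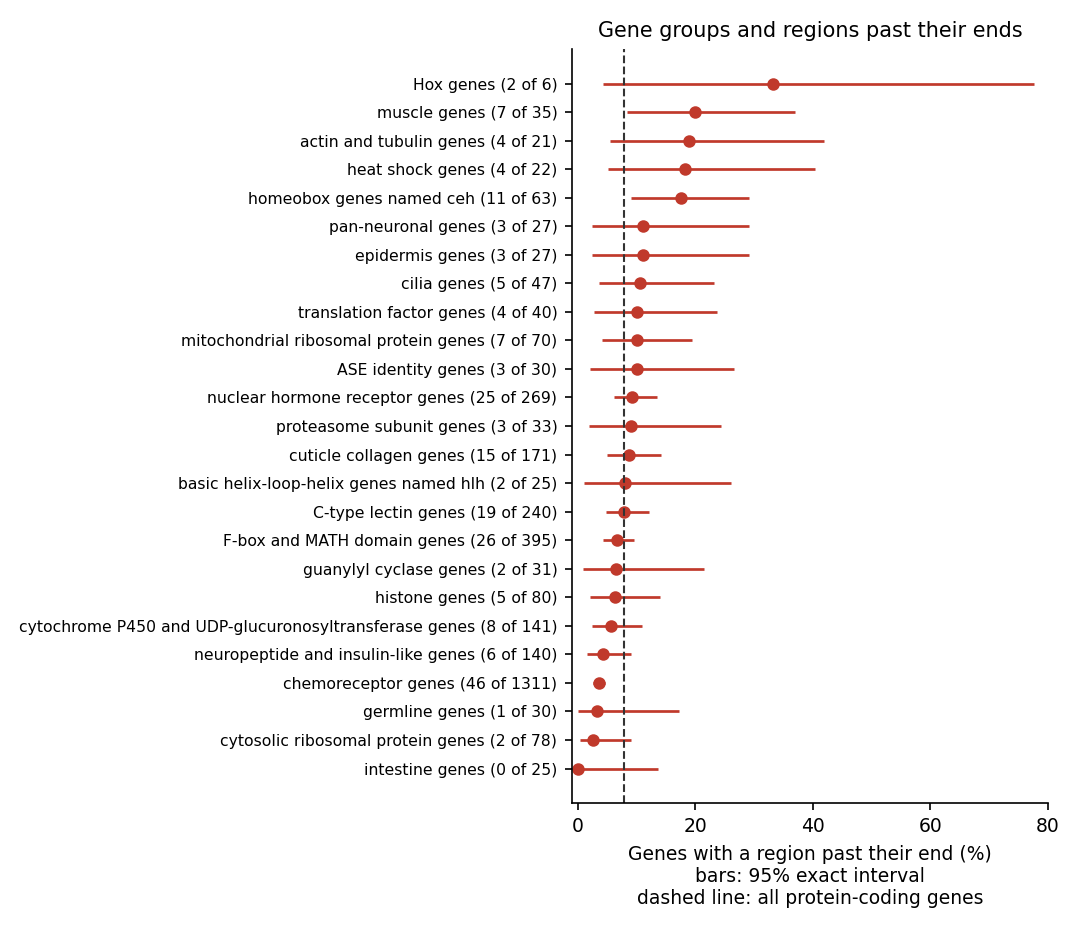
Percent of the genes of 25 groups with a gene-end region past their end, with exact 95% intervals as bars, the counts beside the group names and the share over all protein-coding genes (7.82%) as a dashed line. Most intervals include the dashed line. That of chemoreceptor genes lies below it, and those of muscle genes and homeobox genes lie above it. Among genes with room past their end, these last intervals include the share of 15.3%.

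ASE identity genes, the group nearest to the known role of CHE-1, had 3 of 30, all among the weak regions. The region 817 bp past gcy-14, a receptor guanylyl cyclase of the left ASE neuron, ranked 19647 in the list of both replicates, 18845 in replicate 1 and 2343 in replicate 2. Those past flp-5, a FMRFamide-like neuropeptide gene, and ceh-36, a homeobox gene of ASE and AWC neurons, ranked 25715 and 28588. Each of these was found in 1 replicate only, flp-5 in replicate 2 and ceh-36 in replicate 1. None of the 3 was in the IDR set.

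Mitochondrial ribosomal protein and translation factor genes, few of which have room past their end, had intervals above the background only where room was required. The lower bounds then lay just above 15.3%. Mitochondrial ribosomal protein genes had 7 of 70 (10%, exact 95% interval 4.12 to 19.5%), or 36.8% of the 19 with room (16.3 to 61.6%), with mrpl-40 in the IDR set and mrps-25 next, at rank 3714. Translation factor genes had 4 of 40, or 50% of the 8 with room (15.7 to 84.3%), led by eef-2, which encodes the elongation factor of translocation, at rank 1704 and ranks of 1879 in replicate 1 and 1052 in replicate 2. In the groups that follow, both intervals include their backgrounds. Nuclear hormone receptor genes had 25 of 269 (9.29%), led by nhr-104, at rank 996, with ranks of 777 in replicate 1 and 6738 in replicate 2. Cuticle collagen genes had 15 of 171, led by sqt-1 at rank 3719. Epidermis genes had 3 of 27, led by hmp-1 in the IDR set and then let-805, the myotactin of epidermal attachments to muscle, at rank 5633. Heat shock genes had 4 of 22, led by hsp-16.48, a small heat shock protein symbol that a pair of genes carries. The region lay past the ends of both, at rank 6409, and was found in replicate 2 only.

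Small groups gave wide intervals: Hox genes had 2 of 6 (33.3%, exact 95% interval 4.33 to 77.7%) and actin and tubulin genes 4 of 21 (19%, 5.45 to 41.9%), none of them in the IDR set. Cytochrome P450 and UDP-glucuronosyltransferase genes had 8 of 141, with cyp-13B2 in the IDR set and then cyp-23A1, at rank 2954.

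Further groups had no region in the IDR set. Histone genes had 5 of 80, led by hil-7 and his-24, which encode linker histones, at ranks 4768 and 11301. C-type lectin genes had 19 of 240 and F-box and MATH domain genes 26 (6.58%), led by clec-150 at rank 3817 and fbxa-65 at rank 5525. Cilia genes had 5 of 47, led by che-13, a protein of intraflagellar transport, at rank 4744. Pan-neuronal genes had 3 of 27, led by egl-3, a processing enzyme of neuropeptides, at rank 17992. Of proteasome subunit genes 3 of 33 had one, of guanylyl cyclase genes 2 of 31, of genes named hlh 2 of 25 and of germline genes 1 of 30, none of them in the IDR set.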

How the data were processed

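Anti-GFP chromatin immunoprecipitation and sequencing gave lists of regions for replicate 1, replicate 2 and both replicates, called against a control, per the labels and list names, and an IDR-thresholded set. The authors deposited a score per region, in the signal column, on a scale that is not stated. It was used only to rank and describe regions within a list. Which caller, aligner and threshold were used is not given in the sources used here. Build ce11 (WBcel235) was used, with the Ensembl release 115 annotation and the RefSeq genome sequence. Lists of the older build were not used here. The 2 samples are biological replicates per the labels. Depth is unknown.

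Summits were classified by position. Shares carry exact (Clopper-Pearson) 95% intervals and no test was made. Replicate regions were matched by an overlap of at least 1 bp, taking the highest. The members, gene lists and sequences sought were chosen with earlier results of these data known. Named regions are the 20 highest gene-end regions, the 2 highest of each of 25 gene lists and any past ASE identity genes. No sequence of chromosome I is printed. Other regions named were chosen after their values were seen. Position, motif and repeat steps were tested on simulated data. Alternatives covered distances, thresholds, windows and single replicates. Versions were pandas 2.3.3, scipy 1.17.1, numpy 2.4.6 and matplotlib 3.10.9 under Python 3.11.15. Coordinates are 1-based.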

Additional observations from a re-analysis of the deposited data

How the results depend on the processing

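Of 83 alternatives over 9 results, 64 gave a value within the 95% interval of the reported one. The share of gene-end regions in the IDR set (1.72%) was 4.27% with regions at tRNA, snoRNA and snRNA genes kept, 0.638% for the upper 0.5 of the IDR set and 3.89% for 2 times as many regions. The list of a single replicate has no IDR set, so the highest regions of that list, to the same number, stood in for it. Of the gene-end regions of each such list, 1.59% in replicate 2 and 1.85% in replicate 1 were then high. Gene ends took 9.09% of nuclear IDR regions with those small RNA genes kept and 5.32% with a window of 2 kb past the end. They took 3.24% of the high nuclear regions in the list of replicate 2 and 3.65% in that of replicate 1. In alternatives added after the data had been seen, counting the nuclear IDR regions without those at small RNA genes gave 5.64% for the second share. For the first, leaving out tandem repeats gave 1.5% and leaving out regions overlapped by a higher one gave 1.99%. The share of IDR gene-end regions high in both replicates was 88.9% when high meant 2 times as many ranks and 33.3% when it meant 0.5 as many. The share between facing ends was 41.4% within 500 bp past the end, 29.7% within 2 kb, 29.4% with 500 bp upstream of starts left out and 43.6% with 2 kb. The median distance was 233 bp within 500 bp and 621 bp within 2 kb. Windows with 100 bp to either side held CGCACA in 7.53%, GAAACC or GAAGCC in 12.8%, and 38.5% G and C. Genes of the lists with a region past their end (6.27%) were 0.15% for the IDR set and 5.4% for the nearest end only. Those shifts follow from windows, thresholds and exclusions being widened or narrowed. No paired analysis was possible because the study has 1 group. The depth is unknown and no control library was analysed here, which limits every value to a description of these 2 libraries.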
